A study of Mus musculus with 60 samples.

Results

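The genes described here were 10 genes of bile acid synthesis and bile salt transport, taken as a named list (Cyp7a1, Cyp8b1, Cyp7b1, Cyp27a1, Baat, Slc27a5, Akr1d1, Hsd3b7, Abcb11 and Slc10a1). All 10 were present among the 19355 genes of the cell culture table and the 17473 genes of the liver table, and the filter for low values removed none of them. RNA from cells and livers of mice that the labels give as wild-type C57BL/6 was sequenced and given as gene-level FPKM (fragments per kilobase of transcript, scaled to the mapped fragments of each library), with 3 libraries per group. The cell table held 33 libraries. Hepatocytes were isolated from adult mouse liver, and IL6-iHPCs were the proliferating cells obtained from them in a medium with interleukin 6 (IL6), sampled in the first culture (P0) on day 3 (D3) and day 14 (D14), and after passaging as the lines mouse-1 at P10, mouse-2 at P10, clone-1 at P20 and mouse-1 at P35, where P is the passage number. The methods also list epidermal growth factor, hepatocyte growth factor, the supplement ITS and dexamethasone in the medium with IL6. IL6-iMHs were the cells that each of these 4 lines gave after transfer to a maturation medium. It held ITS, oncostatin M and dexamethasone at a higher concentration. The line clone-1 was derived from 1 cell, the other lines were bulk cultures, and mouse-1 entered at 2 passages, so that the 4 lines were not 4 independent animals. The liver table held 18 libraries from untreated mice (normal liver) and from mice 6 h, 24 h, 3 days, 7 days and 14 days after partial hepatectomy (PHX), the surgical removal of most of the liver. The series' other 9 samples were not analysed here.

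Bile acids are made from cholesterol in hepatocytes. The classic pathway starts at the sterol 7-alpha-hydroxylase Cyp7a1, its rate-limiting enzyme, and the alternative pathway starts with side-chain oxidation by the mitochondrial Cyp27a1 and continues through the oxysterol 7-alpha-hydroxylase Cyp7b1. Hsd3b7 and Akr1d1 then remodel the steroid ring, Cyp8b1 adds the 12-alpha-hydroxyl group that makes cholic acid, and Slc27a5 (bile acid-CoA ligase) and Baat conjugate the product to an amino acid, in mice mostly taurine. Abcb11, the bile salt export pump, carries conjugated bile salts across the canalicular membrane into bile, and Slc10a1, the sodium-dependent taurocholate cotransporter, takes them up from portal blood. Bile acids limit their own synthesis through the nuclear receptor Nr1h4 (FXR) and its target Nr0b2 (SHP), and a set of liver-enriched transcription factors, among them Hnf4a and Nr5a2, is known to sustain the pathway.

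In freshly isolated hepatocytes the members spanned a wide range of levels in FPKM, a scale per transcript length. Slc27a5 was highest, at 716 ± 24.97 (SD, n = 3), followed by Hsd3b7 at 385 ± 24.5. Cyp27a1 (286 ± 16.7), Slc10a1 (279 ± 17.1) and Cyp8b1 (272 ± 13.6) came next and overlapped each other between libraries. Cyp7b1 (189 ± 15.02), Baat (142 ± 9.97), Abcb11 (87.2 ± 6.87) and Akr1d1 (61.03 ± 3.11) lay below them without overlap. Cyp7a1 was lowest at 12.7 ± 0.7802, although its enzyme limits the flux of the classic pathway. In normal liver Cyp7a1 was again the lowest (28.4 ± 15.9). It was also the most variable relative to its mean, with 27.5, 13.01 and 44.8 FPKM in the 3 libraries.

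Promoter sequence was at hand in RefSeq (GRCm38.p6) for 6 of the 10 members, from 250 bases before to 50 bases after the annotated start, and 3 of these are shown because they hold letters that match binding sequences of transcription factors tied to bile acid genes or to IL6 signalling. Capitals mark the matches, the lines read 5′ to 3′ on the gene's strand, and positions are counted from the annotated start. In Cyp8b1 (chr9:121916256-121916555, minus strand) the capitals are a match to the Hnf4a sequence CAAAGTCCA at -67 that overlaps a match to the Nr5a2 sequence CAAGGNCA at -60. In Akr1d1 (chr6:37529923-37530222, plus strand) they are a match to the C/EBP sequence TTGCNNAA at -8, on the opposite strand. In Hsd3b7 (chr7:127800359-127800658, plus strand) they are a match at -21 to TTCNNNGAA, the sequence bound by STAT proteins, which carry the signal of the IL6 receptor.
Cyp8b1: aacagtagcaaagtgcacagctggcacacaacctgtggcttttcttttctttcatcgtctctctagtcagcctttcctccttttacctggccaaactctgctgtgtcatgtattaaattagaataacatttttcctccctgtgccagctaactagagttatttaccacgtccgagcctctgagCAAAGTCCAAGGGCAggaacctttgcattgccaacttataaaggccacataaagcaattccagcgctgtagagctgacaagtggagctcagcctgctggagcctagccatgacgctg
Akr1d1: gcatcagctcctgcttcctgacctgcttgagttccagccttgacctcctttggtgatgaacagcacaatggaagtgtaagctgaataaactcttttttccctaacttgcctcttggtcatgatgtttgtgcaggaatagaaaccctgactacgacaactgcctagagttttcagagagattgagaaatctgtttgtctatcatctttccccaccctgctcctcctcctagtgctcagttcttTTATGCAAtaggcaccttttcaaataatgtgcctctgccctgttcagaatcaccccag
Hsd3b7: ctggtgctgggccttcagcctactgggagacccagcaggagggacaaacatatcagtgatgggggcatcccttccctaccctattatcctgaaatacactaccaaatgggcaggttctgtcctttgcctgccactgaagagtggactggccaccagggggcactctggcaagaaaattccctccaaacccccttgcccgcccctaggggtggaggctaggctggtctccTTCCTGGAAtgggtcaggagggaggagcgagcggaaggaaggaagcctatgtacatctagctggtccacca
Both strands were searched, and among all 32851 RefSeq mouse promoters of this length 0.475% held CAAAGTCCA, 6.71% held CAAGGNCA, 10.8% held TTGCNNAA and 8.30% held TTCNNNGAA. Of the 2 listed starts of Slc10a1, the first (chr12:80968656-80968955, minus strand) had a TTCNNNGAA match at -53 and the second (chr12:80968030-80968329, minus strand) had TTGCNNAA matches at -75 and -4. GGTCANTGA, the core of the inverted repeat bound by Nr1h4 (0.840% of promoters), matched none of the 6 members, and the windows of Cyp27a1 and Abcb11 held none of the sequences named here. A match describes letters in this window and is not evidence of binding. Cyp7a1, Cyp7b1, Baat and Slc27a5 are named here without a promoter sequence. The annotated starts used for Akr1d1, Cyp27a1 and the second entry of Slc10a1 lie inside the gene bodies given next. Most of the Akr1d1 window, and the whole windows of Cyp27a1 and the second Slc10a1 entry, are therefore not upstream of the listed gene. On the same build the gene bodies lie at chr4:6265612-6275632 (Cyp7a1), chr9:121914356-121916305 (Cyp8b1), chr3:18071944-18243890 (Cyp7b1), chr1:74713148-74737897 (Cyp27a1), chr4:49489416-49507915 (Baat), chr7:12988346-12998192 (Slc27a5), chr6:37529978-37574921 (Akr1d1), chr7:127800609-127803802 (Hsd3b7), chr2:69238282-69342616 (Abcb11) and chr12:80953185-80968705 (Slc10a1).

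Reads on genes, recovered from the steps of the FPKM values, were 49.3 to 88.9 M per library in the cell table (median 60.8 M) and 52.1 to 79.3 M in the liver table (median 57.5 M). A member at 0 FPKM was bounded at the value of 3 reads in its own library, which covers counting error only. In the cell table the 3 libraries of a group were technical repeats, so that p-values there measure the spread of repeats and not of animals. The labels do not say that the liver samples of a group were separate mice, so livers counted below are liver libraries. Differences are given on the log2(FPKM + 1) scale, which understates changes of genes near 1 FPKM. A gene was called changed at an adjusted p below 0.05 with at least a 2-fold difference, and the percentage of all tested genes called the same way stands beside the first count in each comparison. The comparisons within a table share their hepatocyte or normal liver libraries. The median log2 difference of all genes against hepatocytes was 1.14 at D3, 1.00 at D14, 0.93 in passaged IL6-iHPCs and 0.46 for IL6-iMHs, so members that fell did so against a table that was shifted upward. With each library scaled by its median ratio these medians were 0.06, 0.08, 0.06 and -0.01, and the share of called genes that were lower moved from 18.4% to 52.5% at D3, from 20.6% to 52.3% at D14, from 19.0% to 52.4% in passaged IL6-iHPCs and from 23.9% to 55.4% in IL6-iMHs.

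**Figure D1:**
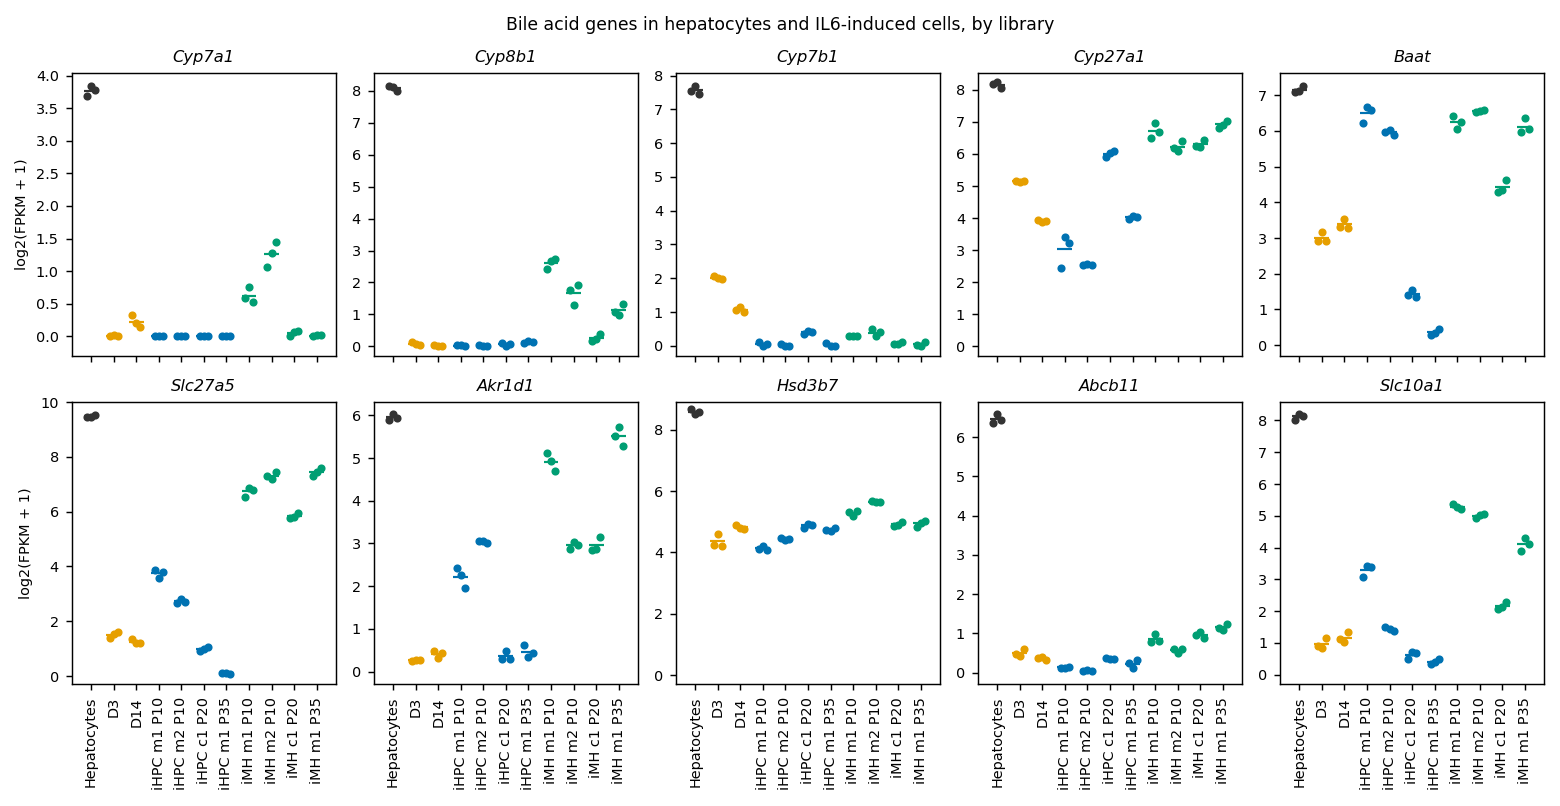
Level of each member as log2(FPKM + 1) in the 11 groups of the cell table, with 1 point per library and a bar at the mean of 3 libraries (m1, mouse-1; m2, mouse-2; c1, clone-1; vertical scales differ between panels). Hepatocytes are highest in all 10 panels, and IL6-iMHs stand far closer to them in Cyp27a1, Baat, Slc27a5 and Akr1d1 than in Cyp7b1 and Abcb11.

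The first comparison asked what became of bile acid genes when hepatocytes entered culture in the medium with IL6. No culture without IL6 was among these groups, so IL6 cannot be told apart from the other additives, plating or time in culture. All 10 members fell by D3 and all 10 were lower at D14, against 12.1% and 12.9% of all genes that were called lower. The members' median log2 difference was -5.62 at D3 and -5.82 at D14. No library of either time reached the lowest hepatocyte library for any member. How many of all genes showed such a gap between technical repeats was not counted.

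Among the enzymes that open the pathways, Cyp7a1 was read at 11.8, 13.4 and 12.8 FPKM in hepatocytes and 0, 0.00945 and 0 at D3, where the library with a signal had 2 reads. Some signal was present at D14 (0.258, 0.1501 and 0.104). Cyp7b1 went from 186, 205 and 176 in hepatocytes to 3.15, 3.05 and 2.91 at D3 and 1.096, 1.23 and 0.985 at D14. Cyp27a1, which also acts outside bile acid synthesis, was the enzyme of this group with the smallest loss. It fell from 291, 299 and 267 to 34.7, 33.7 and 35.01 at D3 (-3.02 ± 0.14 (SE), adjusted p = 1.3e-18, limma) and was lower again at D14 with 14.4, 13.8 and 13.9. Between D3 and D14 Cyp27a1 was the only member called (-1.24 ± 0.14 (SE), adjusted p = 6.2e-09, limma), where 5.05% of all genes were called lower. That holds for the main setting. With a pseudocount of 0.1 and with voom Cyp7b1 was called lower (-1.39 and -1.46, from -0.94) and Cyp7a1 higher (1.35 and 5.15, from 0.22). With voom Cyp8b1 was also called lower (-2.51), on 0 to 3 reads per library at D14 and 3 to 10 at D3.

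The ring-modifying enzymes and the conjugating enzymes fell to different depths. Cyp8b1, which sets the share of cholic acid, was nearly lost, from 282, 277 and 256 FPKM to 0.0901, 0.0454 and 0.0257 at D3 and 0.0288, 0 and 0 at D14. Slc27a5 went from 698, 705 and 744 to 1.64, 1.89 and 2.02 at D3, the largest drop of a conjugating enzyme (-7.97 ± 0.08 (SE), adjusted p = 3.7e-34, limma). Baat, the next enzyme of conjugation, kept more of its level, with 6.62, 7.997 and 6.59 at D3 and 9.01, 10.6 and 8.82 at D14 against 134, 138 and 153. Hsd3b7 stayed at 5.11% and 7.08% of its hepatocyte mean at D3 and D14, while Akr1d1 stood at 0.331% and 0.542%.

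Both transporters fell with the enzymes. Abcb11 was read at 81.01, 94.6 and 85.97 FPKM in hepatocytes and 0.377, 0.3496 and 0.503 at D3 (-5.97 ± 0.06 (SE), adjusted p = 4.3e-34, limma). Slc10a1 went from 259, 292 and 284 to 0.857, 0.774 and 1.23 (-7.17 ± 0.10 (SE), adjusted p = 5.4e-31, limma). At D14 they stood at 0.321% and 0.449% of their hepatocyte means.

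In the passaged IL6-iHPCs, averaged over the 4 lines, all 10 members were again lower than in hepatocytes, against 11.3% of all genes called lower, with a median log2 difference of -5.35. By line, 9 members were called in mouse-1 (P10) and 10 in each of the other lines, where 12.6%, 13.1%, 10.4% and 11.7% of all genes were called lower in mouse-1 at P10, mouse-2 at P10, clone-1 at P20 and mouse-1 at P35. Baat in mouse-2 (P10) lost its call under quantile normalization (-0.57 from -1.19). Cyp7a1 had 0 reads in all 12 libraries, at least 649-fold below hepatocytes (smallest bound over the lines, from 3 reads per library). Cyp8b1 reached at most 0.118 FPKM, Cyp7b1 at most 0.365 and Abcb11 at most 0.2898 in any of the 12 libraries. These 4 genes include the first enzyme of the classic pathway and the canalicular exporter.

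The other 6 members, Hsd3b7 apart, were kept to very different degrees between the lines. Baat is the clearest case. It was read at 73.5, 101 and 96.01 FPKM in mouse-1 (P10) and 61.9, 64.5 and 57.7 in mouse-2 (P10), but at 1.67, 1.93 and 1.53 in clone-1 (P20) and 0.212, 0.277 and 0.3602 in mouse-1 (P35). Its difference from hepatocytes in mouse-1 (P10) was -0.66 ± 0.11 (SE), adjusted p = 3.7e-06 (limma), under the fold threshold. The direction was not kept under quantile normalization, where the difference was 0.02. Under median ratio scaling the difference was -1.75 and Baat was called lower in this line too. Cyp27a1 was highest in the clone, with 59.5, 63.8 and 67.03 in clone-1 (P20). It stood at 14.8, 15.8 and 15.3 in mouse-1 (P35), 4.47, 9.597 and 8.29 in mouse-1 (P10) and 4.76, 4.899 and 4.75 in mouse-2 (P10). Hsd3b7 varied least, from 15.7 to 29.6 FPKM over all 12 libraries. Slc27a5, Akr1d1 and Slc10a1 spanned 0.0439 to 13.7, 0.216 to 7.28 and 0.256 to 9.75.

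The next comparison asked how far the matured IL6-iMHs resembled hepatocytes in these genes. All 10 members were lower than in hepatocytes in the mean of the 4 lines, against 7.79% of all genes called lower, with a median log2 difference of -3.34. By line 9, 9, 10 and 9 members were called in mouse-1 at P10, mouse-2 at P10, clone-1 at P20 and mouse-1 at P35, where 7.25%, 7.63%, 10.4% and 8.02% of genes were lower. The member not called was Baat in the P10 lines of mouse-1 (-0.91 ± 0.11 (SE), adjusted p = 1.6e-08, limma) and mouse-2 (-0.59 ± 0.11 (SE), adjusted p = 2.5e-05, limma), both under the fold threshold. In mouse-1 (P35) it was Akr1d1 (-0.45 ± 0.11 (SE), adjusted p = 0.00068, limma). All 3 were called under median ratio scaling. Under quantile normalization calls were lost for Akr1d1 in mouse-1 (P10) (-0.95), Cyp27a1 in mouse-1 (P35) (-0.95) and Baat in mouse-1 (P35) (-0.73). Akr1d1 in mouse-1 (P10) was also not called without its IL6-iMH replicate 3 (-0.93), nor Baat in mouse-1 (P35) without hepatocyte replicate 3 (-0.97) or its IL6-iMH replicate 1 or 3 (-0.95 and -0.99). No IL6-iMH library reached the lowest hepatocyte library for any of the 10 genes, and the share of all genes with such a gap was not counted.

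Members differed in how near the matured cells stood to the hepatocyte level. Line means of Cyp27a1 lay at 25.9% to 42.1% of hepatocytes, those of Baat at 14.5% to 65.9%, those of Akr1d1 at 11.1% to 73.4% and those of Slc27a5 at 7.91% to 24.4%. Slc10a1 (1.25% to 13.6%) and Hsd3b7 (7.58% to 12.9%) were lower, and Cyp7a1 ranged from 0.0555% to 11.2%. Cyp8b1 (0.0748% to 1.88%), Abcb11 (0.554% to 1.42%) and Cyp7b1 (0.0152% to 0.166%) stayed lowest. Some of the higher levels were already present before maturation. Baat in mouse-1 (P10) stood at 63.6% of hepatocytes before and 52.9% after it. Akr1d1 in mouse-2 (P10) stood at 11.8% before and 11.1% after it. The 12 IL6-iMH libraries had a lowest, median and highest level of 3.200, 24.1 and 40.05 FPKM for Slc10a1 and 0.418, 0.8897 and 1.37 for Abcb11.

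The general markers of hepatocytes were set beside these genes to check the labels. Summed over the 5 measured (Alb, Ttr, Apoa1, Apob and Fgb), their level was 72948 to 78730.2 FPKM in hepatocytes and 59648 to 84746 in IL6-iMHs, and 1 of the 5 was called lower in IL6-iMHs. In passaged IL6-iHPCs the sum was 2636 to 17383. Cholangiocyte markers (Krt19, Krt7, Sox9, Epcam, Spp1 and Cftr) summed to 3.84 to 3.94 FPKM in hepatocytes, 2699 to 10976 in passaged IL6-iHPCs and 200.1 to 1408 in IL6-iMHs. Of the 4 that were tested, 4 were called higher in passaged IL6-iHPCs and 3 after maturation, while Cftr was under 0.1 FPKM in all 33 libraries. Their part in the result was not tested. Clec4f and Timd4, which mark Kupffer cells, were at 0 in all 30 libraries other than hepatocytes, where the Kupffer list summed to 10.4 to 12.7. The whole list summed to at most 4.31 in the other groups except matured mouse-1 (P35), where it reached 17.8 to 21.3. The highest of these sums was Csf1r alone (21.3). In matured mouse-1 (P35) 1 of 3 tested was called higher and 2 lower than in hepatocytes. On maturation 1 of 3 was called higher in the mean of the lines. Red blood cell, endothelial and neutrophil markers were at 107 to 124, 18.2 to 20.04 and 7.09 to 8.39 in hepatocytes, and 4 of 4, 3 of 5 and 2 of 2 of those tested were called lower in IL6-iMHs, as were 2 of 3 Kupffer cell markers. The neutrophil list summed to 86.4 to 92.3 in mouse-1 (P35) IL6-iHPCs and 27.9 to 36.5 in clone-1 (P20), the lines lowest in Baat and Slc27a5. It summed to at most 0.142 in both P10 lines. Only S100a8 and S100a9 of this list could be tested, and 2 of 2 were called higher in mouse-1 at P35 than at P10. Ly6g, Retnlg and Mpo reached at most 0.325, 0.764 and 0.0405 FPKM in any of the 33 libraries. The part of these markers was not tested either. The stellate cell list summed to 0.635 to 0.948 in hepatocytes and at most 25.9 in any group, with 1 of its 6 genes at levels that could be tested.

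Maturation itself was measured by setting the IL6-iMHs of each line against the IL6-iHPCs of the same line. In the mean of the 4 lines 6 members rose and none fell, against 6.68% of all genes called higher, and the members' median log2 difference was 1.81 while that of all genes was -0.40. The share of called genes that were lower was 76.2% as deposited and 40.3% under median ratio scaling. Slc27a5 rose most (4.95 ± 0.04 (SE), adjusted p = 4.2e-36, limma), from 0.0439, 3.25 and 13.7 FPKM (lowest, median and highest of 12 libraries) to 53.96, 131 and 189.9. Slc10a1 rose by 2.69 ± 0.05 (SE), adjusted p = 9.4e-28 (limma), Cyp27a1 by 2.64 ± 0.07 (SE), adjusted p = 1.7e-24 and Akr1d1 by 2.57 ± 0.06 (SE), adjusted p = 2.8e-26. Baat (2.27 ± 0.06) and Cyp8b1 (1.35 ± 0.05) completed the 6. The 12 libraries before and the 12 after maturation did not overlap for Slc27a5, Cyp27a1 and Cyp8b1, although the last 2 nearly met, with a highest IL6-iHPC library at 67.03 and 0.118 FPKM and a lowest IL6-iMH library at 67.2 and 0.127. Slc10a1, Akr1d1 and Baat overlapped over the lines, and Baat in mouse-1 (P10) and Akr1d1 in mouse-2 (P10) overlapped within a line. Overlap was not counted over all genes.

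The 4 members that were not called had positive differences in the mean of the lines, by less than 2-fold on this scale. These were Cyp7a1 (0.49 ± 0.03), Abcb11 (0.69 ± 0.03), Hsd3b7 (0.65 ± 0.04) and Cyp7b1 (0.08 ± 0.03), each with an adjusted p below the threshold. The added constant weighs on the first 2, since with a pseudocount of 0.1 their differences were 1.76 and 2.02 and both were called. With voom Cyp7a1 (5.32), Abcb11 (2.845) and Cyp7b1 (1.78) were all called higher. Abcb11 did not overlap between the groups, at 0.0288, 0.0994 and 0.2898 FPKM before and 0.418, 0.8897 and 1.37 after maturation, yet its highest value was still 1.37 FPKM. Hsd3b7 was called under median ratio scaling (1.17).

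**Figure D2:**
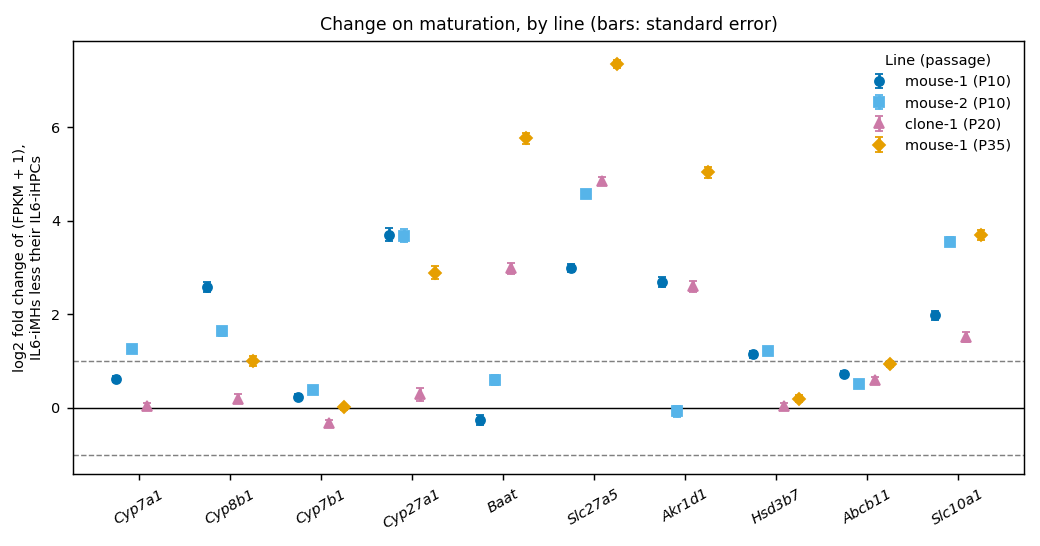
Log2 difference of (FPKM + 1) between IL6-iMHs and the IL6-iHPCs of the same line for each member, with bars for the standard error and dashed lines at a 2-fold difference; Cyp7a1 in mouse-1 (P35) is left out because no library had more than 3 reads. Slc27a5 lies at 2.99 to 7.35 in the 4 lines, whereas Baat lies at -0.26 in mouse-1 (P10) and 5.77 in mouse-1 (P35).

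The lines did not mature alike. In mouse-1 at P10, mouse-2 at P10, clone-1 at P20 and mouse-1 at P35, 6, 6, 4 and 6 members rose, against 9.59%, 11.2%, 5.86% and 10.2% of all genes, and none was called lower. Slc27a5 and Slc10a1 rose in all 4 lines. Cyp27a1 and Cyp8b1 rose in the 3 bulk lines and Akr1d1 in all but mouse-2 (P10). Baat rose in clone-1 (P20) and mouse-1 (P35), Hsd3b7 in both P10 lines and Cyp7a1 in mouse-2 (P10). With a pseudocount of 0.1 and with voom Abcb11 was also called higher in all 4 lines (1.46 to 2.33 and 1.74 to 3.63). So was Cyp7a1 in mouse-1 (P10) (2.67 and 7.44). Cyp7b1 was called higher this way in mouse-1 (P10) (1.29 and 3.29) and mouse-2 (P10) (1.90 and 5.52). Voom alone added Cyp7a1 (3.05) and Cyp8b1 (2.085) in clone-1 (P20), and median ratio scaling added Baat in mouse-2 (P10) (1.18). Cyp7b1 in clone-1 (P20) went the other way, from 0.261, 0.365 and 0.316 to 0.0465, 0.02904 and 0.0798 FPKM (-0.32 ± 0.06 (SE), adjusted p = 7.9e-06, limma), and was called lower with a pseudocount of 0.1 (-1.45) and with voom (-2.59). Clone-1 (P20) differed from the mean of the 3 bulk lines in 3 called members, with the smaller rise in the clone, where 13.4% of all genes were called this way. Baat differed the other way by 0.95 ± 0.13 (SE), adjusted p = 1.5e-07 (limma), under the fold threshold, and was called under quantile normalization (1.56) and without replicate 1 of the matured clone (1.02) or replicate 2 of its IL6-iHPCs (1.01). With a pseudocount of 0.1 and with voom Cyp7a1 (-1.84 and -3.03) and Cyp7b1 (-2.56 and -5.82) were also called lower and Akr1d1 higher (1.05 and 1.38), and with voom Abcb11 lower (-1.47). For Cyp27a1 the clone went from 59.5, 63.8 and 67.03 to 75.3, 73.3 and 85.4 FPKM, while mouse-1 (P10) went from 4.47, 9.597 and 8.29 to 89.03, 125 and 103. The difference of the 2 changes was -3.14 ± 0.16 (SE), adjusted p = 2.0e-16 (limma), and the clone started from the highest IL6-iHPC level of Cyp27a1 of the 4 lines. For Cyp8b1 the difference was -1.55 ± 0.12 (SE), adjusted p = 1.0e-12 (limma), with 0.127, 0.1704 and 0.312 FPKM in the matured clone against 4.32, 5.32 and 5.66 in matured mouse-1 (P10). For Slc10a1 it was -1.55 ± 0.12 (SE), adjusted p = 1.7e-12 (limma), with 3.200, 3.38 and 3.85 in the matured clone and 29.4, 31.6 and 32.6 in matured mouse-2 (P10). Clone-1 is a single clone at its own passage number, and the methods describe such clones as grown from hepatocytes with a tdTomato reporter although the labels give wild type, so clone, animal, genotype and passage cannot be told apart.

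Cyp7a1 was read mainly in the matured cells of the P10 lines. It stood at 0.505, 0.691 and 0.439 FPKM in mouse-1 (P10) and 1.099, 1.42 and 1.72 in mouse-2 (P10), the latter called higher than its IL6-iHPCs (1.26 ± 0.06 (SE), adjusted p = 3.0e-17, limma). In clone-1 (P20) the matured libraries had 0, 0.0426 and 0.0536 and in mouse-1 (P35) 0, 0.0108 and 0.0103, the latter from 0, 2 and 2 reads. Akr1d1 separated the P10 lines. In mouse-2 (P10) it stood at 7.28, 7.28 and 6.998 before and 6.29, 7.25 and 6.85 after maturation, a difference of -0.07 ± 0.11 that turned to 0.45 under median ratio scaling and 0.57 under quantile normalization. In mouse-1 (P10) it rose from 4.36, 3.83 and 2.89 to 33.6, 29.6 and 24.8 (2.69 ± 0.11 (SE), adjusted p = 1.4e-18, limma).

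Mouse-1 was the only line sampled at 2 passages. Its IL6-iHPCs at P35 had lower Baat, Slc27a5, Akr1d1 and Slc10a1 than at P10, 4 of 10 members against 8.94% of all genes, and Cyp27a1 was called higher, against 24.8% of all genes. Baat fell by 6.14 ± 0.11 on the log2 scale (adjusted p = 1.2e-27, limma) and Slc27a5 by 3.65 ± 0.08 (adjusted p = 2.4e-25, limma), from 13.7, 10.97 and 12.9 to 0.09296, 0.0845 and 0.0439 FPKM. The call on Cyp27a1 (1.00) lay at the fold threshold and was lost under both scalings. After maturation the passages stood closer in Baat and Slc27a5. Baat stood at 83.9, 65.5 and 75.7 at P10 and 61.7, 80.9 and 65.3 at P35 (-0.12 ± 0.11 (SE), adjusted p = 0.4, limma), and Slc27a5 at 92.9, 116 and 111 and 158, 176 and 189.9 (0.71 ± 0.08 (SE), adjusted p = 3.3e-08, limma), which was under the fold threshold.

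The difference between the passages in the change on maturation was tested itself. It was 6.02 ± 0.16 (SE), adjusted p = 2.6e-23 for Baat, 4.36 ± 0.12 (SE), adjusted p = 5.5e-23 for Slc27a5, 2.35 ± 0.16 (SE), adjusted p = 1.1e-13 for Akr1d1 and 1.71 ± 0.15 (SE), adjusted p = 1.3e-11 for Slc10a1 (limma), where 9.65% of all genes were called higher. Cyp8b1 had a rise that was smaller at P35 (-1.58 ± 0.14 (SE), adjusted p = 4.3e-11, limma), where 24.1% were called lower. Hsd3b7 (-0.95 ± 0.11), Cyp27a1 (-0.80 ± 0.20), Cyp7a1 (-0.61) and Cyp7b1 (-0.22 ± 0.08) also had negative differences, under the fold threshold. Cyp7a1 was called with a pseudocount of 0.1 (-2.57) and with voom (-5.75), and Cyp7b1 with a pseudocount of 0.1 (-1.17). Of matured mouse-1 cells, those at P35 had lower Cyp8b1 (1.12, 0.987 and 1.53 against 4.32, 5.32 and 5.66 FPKM, -1.46 ± 0.10 (SE), adjusted p = 3.7e-13, limma) and lower Slc10a1 (13.99, 18.8 and 16.2 against 40.05, 37.7 and 36.2, -1.18 ± 0.10 (SE), adjusted p = 7.6e-11, limma), 2 of 10 members against 2.64% of all genes. With a pseudocount of 0.1 and with voom Cyp7a1 (-2.57 and -6.08) and Cyp7b1 (-1.36 and -3.66) were called lower there too. The rise of Cyp8b1 at P35 was 1.01, at the fold threshold, and was not called when any of 3 of its 6 libraries was left out (lowest 0.90).

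Of the other bile acid genes, 15 of 17 further synthesis enzymes, 17 of 19 regulators and 17 of 18 further transporters passed the filter in the cell table. Beside the counts below, 53.9%, 50.0%, 48.1% and 24.8% of all genes were called higher than in hepatocytes at D3, at D14, in passaged IL6-iHPCs and after maturation, and 21.4% were called lower in IL6-iMHs than in their IL6-iHPCs. Among the enzymes 10 fell at D3, 11 were lower at D14 and 9 in passaged IL6-iHPCs, with 1 higher each time, and 5 were lower in IL6-iMHs with 1 higher. Akr1c6, an aldo-keto reductase, was the lowest of these, from 726, 726 and 841 FPKM in hepatocytes to at most 0.358 in any IL6-iMH library (-9.45 ± 0.05 (SE), adjusted p = 2.5e-42, limma), and reads of this family can be shared between near-identical paralogs. Cyp2c70, which makes mouse muricholic acids, fell by 4.63 ± 0.09. The enzyme that was higher was Cyp39a1, an oxysterol 7-alpha-hydroxylase, as is Cyp7b1. It stood at 2.86, 2.95 and 2.99 in hepatocytes and 80.4, 88.1 and 78.6 in matured mouse-1 (P10), with a mean difference of 4.53 ± 0.05 (SE), adjusted p = 3.3e-34 (limma), while Cyp7b1 was at 0.216, 0.221 and 0.227 in those matured cells. On maturation 9 of the 15 enzymes rose and none fell.

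Among the regulators 9 fell and 5 rose at D3 (12.1% and 53.9% of all genes), 7 fell and 3 rose at D14, and in both passaged IL6-iHPCs and IL6-iMHs 6 were lower and 1 was higher than in hepatocytes. Nr0b2, the corepressor that restrains bile acid synthesis, was lowest in IL6-iMHs, from 81.96, 74.1 and 66.6 FPKM in hepatocytes to 0.0351, 0.0865 and 0.0541 in mouse-1 (P10) and 0.303, 0.642 and 0.505 in mouse-2 (P10) (-6.06 ± 0.05 (SE), adjusted p = 4.0e-36, limma). Its activator Nr1h4 was the regulator that was higher, 133, 107 and 118 in matured mouse-1 (P10) against 45.3, 42.7 and 46.4 (1.111 ± 0.06 (SE), adjusted p = 3.1e-17, limma), so the receptor and its target stood in opposite directions. Nr1i3, the nuclear receptor CAR, fell by 3.07 ± 0.07. On maturation 2 regulators rose and 1 fell.

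Among the further transporters 10 fell and 4 rose at D3, shares of 17 to be read against the same 12.1% and 53.9%, 9 and 4 at D14, 8 and 5 in passaged IL6-iHPCs, and 8 and 4 in IL6-iMHs. Slco1b2, an organic anion uptake carrier, fell by 3.89 ± 0.12 in IL6-iMHs and Abcg8, of the sterol exporter, by 2.77 ± 0.05. The basolateral exporter Abcc4 was higher, at 2.68, 2.31 and 2.04 FPKM in matured mouse-1 (P10) against 0.0497, 0.0556 and 0.0997 in hepatocytes (2.18 ± 0.09 (SE), adjusted p = 1.2e-19, limma), and Abcb1b was higher by 2.01 ± 0.06. On maturation 6 of these transporters rose and 3 fell.

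In the liver table the question was how the same genes behaved in regenerating liver. These were whole livers, in which fewer hepatocytes and less RNA per hepatocyte cannot be told apart. A pair of libraries stood apart, and results that rest on them are given with and without them. Replicate 2 of day 3 was the lowest of its group for 10 of 10 members and for 37.2% of all 11114 genes tested. Its log2 values correlated across genes with those of the other day 3 libraries at r = 0.90 and 0.88, while the other two correlated at 0.98. It held Cyp7a1 at 0 and Cyp8b1 at 0.258 FPKM. Replicate 1 of 24 h was the highest of its group for 8 members, and the share of all genes where it was highest was not counted. It was the lowest for 1 member and for 25.2% of all genes. Its correlations with the other 24 h libraries were 0.974 and 0.976, against 0.989 between those, so it stood less far apart. It held Cyp7a1 at 20.2 FPKM against 0.0462 and 0.0116.

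Of the 10 members 3 were called lower at 6 h, 5 at 24 h and 5 on day 3, against 11.5%, 4.16% and 2.49% of all genes, and no member was called higher at these times. On days 7 and 14 limma called 0 members in either direction, against 8.84% and 2.98% of all genes, with 1 member each at an unadjusted p under 0.05 (Cyp7b1 on day 7 and Slc10a1 on day 14), and voom on the recovered reads also called 0. Of all genes called on day 7, 11.6% were lower as deposited and 27.6% under quantile normalization, and on day 14 this share was 67.1% and 47.0% under median ratio scaling. The median log2 difference of the members was -0.71, -1.28, -1.17, -0.22 and -0.26 at the 5 times, that of all genes -0.28, -0.02, 0.01, 0.13 and -0.08. At 6 h the median of all genes was 0.01 under median ratio scaling, and the share of called genes that were lower moved from 70.7% to 45.1%.

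**Figure D3:**
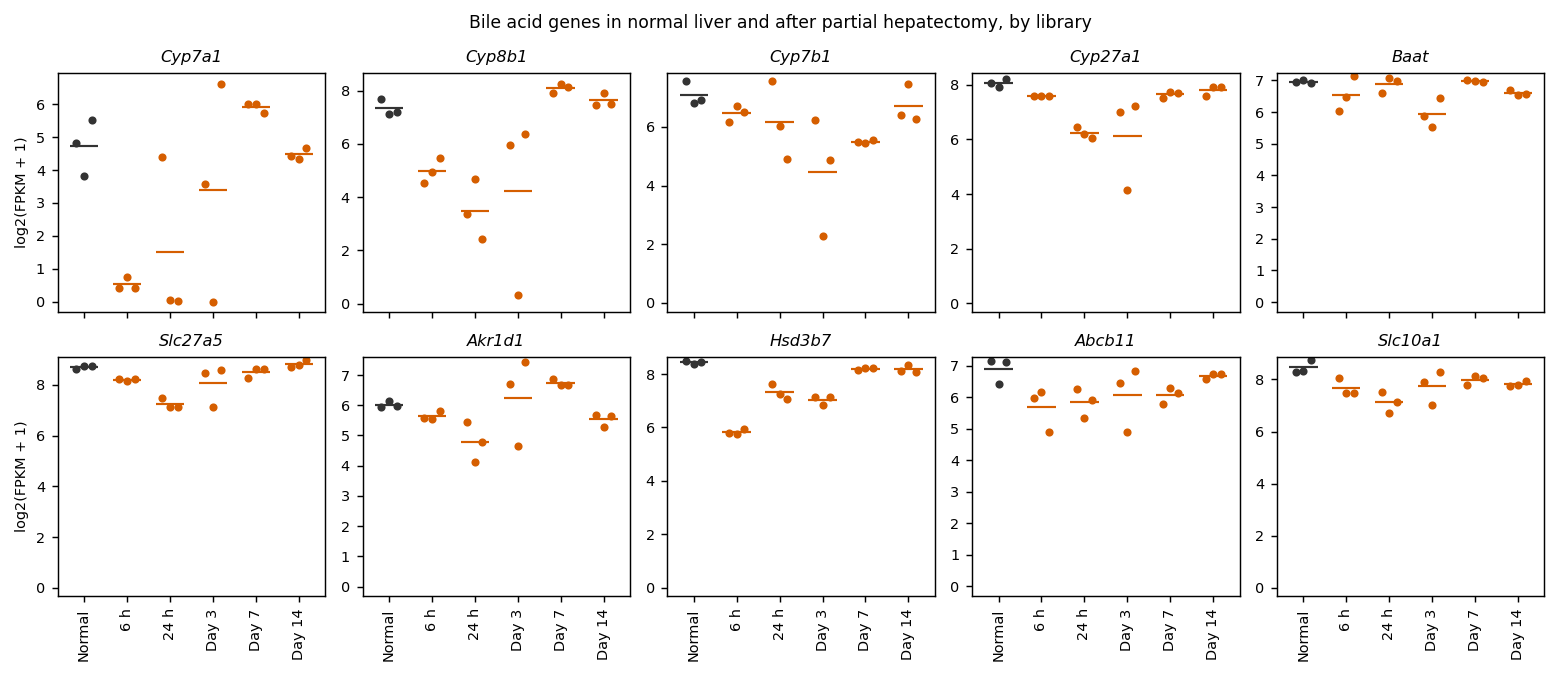
Level of each member as log2(FPKM + 1) in normal liver and at 5 times after partial hepatectomy, with 1 point per library and a bar at the mean of 3 libraries (vertical scales differ between panels). Hsd3b7 falls to 53.5 to 60.9 FPKM at 6 h in a tight group, and the day 3 libraries are split, with replicate 2 lowest in all 10 panels.

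Cyp7a1 fell at 6 h, with 0.327, 0.694 and 0.336 FPKM against 27.5, 13.01 and 44.8 in normal liver (-4.19 ± 1.26 (SE), adjusted p = 0.011, limma). The groups did not overlap, but the call was lost with voom on the recovered reads (adjusted p = 0.086). At 24 h the 3 livers had 20.2, 0.0462 and 0.0116 (-3.22 ± 1.26 (SE), adjusted p = 0.06, limma), and without replicate 1 the difference was -4.68 with an adjusted p of 0.0074. On day 3 they had 10.9, 0 and 96.8, from 0 to the highest level of the table. The day 7 livers, at 62.7, 63.6 and 52.4, all lay above the 3 normal livers without passing the test (1.196 ± 1.26 (SE), adjusted p = 0.52, limma).

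Cyp8b1 and Cyp27a1 had their lowest group means at 24 h. Cyp8b1 went from 204, 139 and 146 FPKM in normal liver to 21.8, 29.7 and 43.2 at 6 h (-2.36 ± 1.07 (SE), adjusted p = 0.074, limma) and 9.24, 24.7 and 4.34 at 24 h (-3.85 ± 1.07 (SE), adjusted p = 0.012, limma), all below the normal range. Without replicate 3 of 24 h the adjusted p was 0.060. On day 3 the 3 livers had 60.6, 0.258 and 81.00 (-3.13 ± 1.07 (SE), adjusted p = 0.039, limma), a call lost in most alternatives, with adjusted p between 0.051 and 0.092 where it was lost. Without replicate 2 the difference was -1.19 (adjusted p = 0.062, limma). On day 7 it stood at 239, 305 and 282, above all normal livers, but this did not pass the test (0.77 ± 1.07 (SE), adjusted p = 0.64, limma). Cyp27a1 went from 266, 244 and 298 to 85.9, 71.7 and 66.1 at 24 h (-1.84 ± 0.52 (SE), adjusted p = 0.014, limma) with no overlap. On day 3 it was read at 128, 16.9 and 148 (-1.94 ± 0.52 (SE), adjusted p = 0.013, limma), and without replicate 2 the difference was -0.96, under the fold threshold. Its day 7 and day 14 means were 74.9% and 83.5% of normal liver.

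Cyp7b1 was scattered at 24 h (189, 64.4 and 29.2 against 188, 111 and 121 FPKM in normal liver). On day 3 its livers held 73.7, 3.89 and 27.9 (-2.64 ± 0.75 (SE), adjusted p = 0.017, limma), and without replicate 2 the difference was -1.56 with an adjusted p of 0.056. The call was also lost without normal liver replicate 1 (adjusted p = 0.054). On day 7 the 3 livers held 43.3, 42.7 and 45.8, all below normal liver without passing the test (-1.61 ± 0.75 (SE), adjusted p = 0.12, limma).

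Hsd3b7 was called at 6 h with the smallest error of the 10 members. It fell from 359, 331 and 346 FPKM to 53.98, 53.5 and 60.9 at 6 h (-2.60 ± 0.14 (SE), adjusted p = 2.0e-08, limma), then stood at 197, 151 and 134 at 24 h (-1.12 ± 0.14 (SE), adjusted p = 7.5e-05, limma) and 142, 112 and 139 on day 3 (-1.40 ± 0.14 (SE), adjusted p = 3.1e-05, limma). Without replicate 3 of 24 h its difference at that time was -0.997, just under the threshold. It was called at all 3 times, as no other member was. On day 7 it had 280.3, 295 and 301, still below the 3 normal livers (-0.24 ± 0.14 (SE), adjusted p = 0.22, limma). Akr1d1, the enzyme that acts after it, was not called at any time. It stood at 42.7, 16.6 and 26.8 at 24 h and 116, 102 and 102 on day 7 against 60.4, 69.9 and 61.4 in normal liver, which put day 7 above all normal livers (0.73 ± 0.48 (SE), adjusted p = 0.28, limma).

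The conjugating enzymes differed from each other at 24 h. Slc27a5 was lower then, with 179, 137 and 139 FPKM against 398, 428 and 423 (-1.46 ± 0.27 (SE), adjusted p = 0.0011, limma), whereas Baat had 96.8, 134 and 125 against 122, 127 and 121 (-0.07 ± 0.24 (SE), adjusted p = 0.85, limma), a difference whose sign turned under quantile normalization. Baat was called lower on day 3 (57.5, 44.9 and 85.3, -1.02 ± 0.24 (SE), adjusted p = 0.0065, limma), at the fold threshold. That call was lost without day 3 replicate 2 (-0.81), day 3 replicate 1 (-0.98) or normal liver replicate 2 (-0.994), and under quantile normalization (-0.79). Of the transporters, Slc10a1 was lower at 24 h, with 181, 105 and 141 against 313, 323 and 429.5 (-1.33 ± 0.28 (SE), adjusted p = 0.0023, limma). At 6 h its 263, 177 and 178 gave -0.79 ± 0.28 (SE), adjusted p = 0.025 (limma), under the fold threshold. Its day 14 livers, at 214, 223 and 246, all lay below normal liver without passing the test (-0.63 ± 0.28 (SE), adjusted p = 0.14, limma). Abcb11 was called at 6 h, with 61.9, 71.2 and 28.4 against 141, 84.9 and 137 (-1.22 ± 0.42 (SE), adjusted p = 0.024, limma). That call was lost under median ratio scaling (-0.85), under quantile normalization (-1.002, adjusted p = 0.059), and without normal liver replicate 1 or 3 or replicate 3 of 6 h, where the difference was -1.09, -1.11 and -0.82.

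The counts at 24 h and on day 3 rested on the libraries set apart above. Without replicate 1 of 24 h, 8 members were called lower at 24 h, since Cyp7a1, Akr1d1 and Abcb11 joined, and without replicate 3 of 24 h there were 3. Without replicate 2 of day 3, 2 members were called on day 3, Hsd3b7 lower and Akr1d1 higher (1.04, adjusted p = 0.014, limma), in place of 5 lower. Without replicate 3 of day 3 there were 7, all lower. Without normal liver replicate 1 or 2 there were 3 in each case. Hsd3b7 was called lower on day 3 without any single library of the 2 groups.

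**Figure D4:**
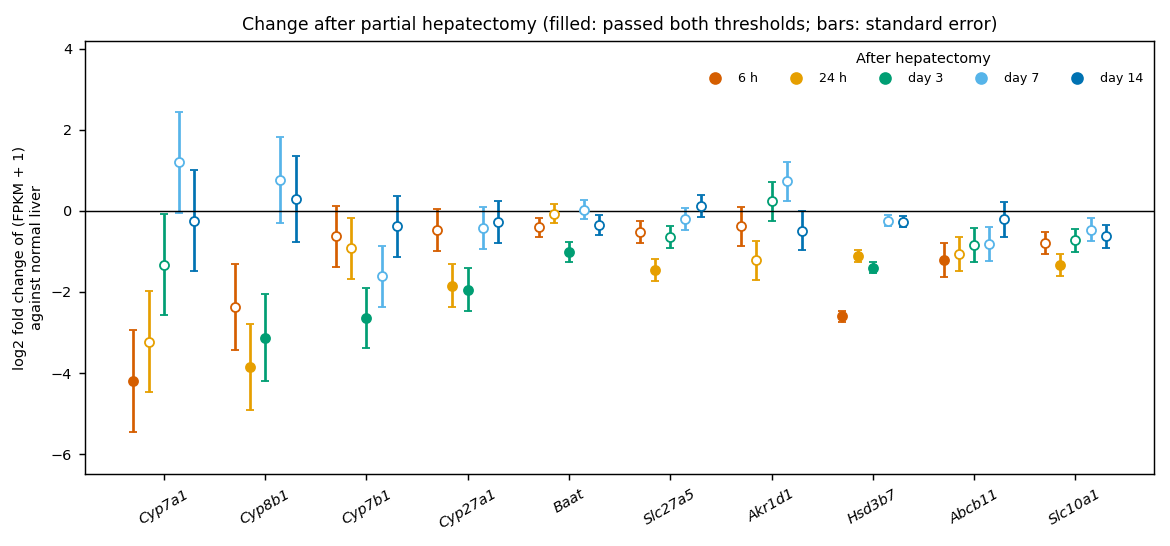
Log2 difference of (FPKM + 1) between each time after partial hepatectomy and normal liver for each member, with bars for the standard error and filled points where a member passed both thresholds. Filled points appear at 6 h, 24 h and day 3 and none on days 7 and 14, and Hsd3b7 has the narrowest error.

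Among the other bile acid genes in liver, 16 of 17 synthesis enzymes, 17 of 19 regulators and 16 of 18 further transporters were tested. Of all genes 4.78%, 3.74%, 3.33%, 7.81% and 0.981% were called higher at the 5 times, and 1.03% and 2.00% were called lower on days 7 and 14. Of the enzymes there were 2 higher and 1 lower at 6 h, 1 and 1 at 24 h, 1 and 0 on day 3, and none on days 7 and 14. At 24 h Cyp2c70 fell from 552, 385 and 591 to 159, 74.2 and 89.5 FPKM (-2.29 ± 0.84 (SE), adjusted p = 0.047, limma) and Por, the electron donor of microsomal cytochromes P450, rose from 63.8, 92.1 and 83.8 to 218, 190.4 and 273 (1.496 ± 0.18 (SE), adjusted p = 4.3e-05, limma). Of the regulators 6 were lower and 1 was higher at 6 h, 1 and 1 at 24 h, 1 and 0 on day 3, 0 and 1 on day 7, and none on day 14. At 24 h Cebpa was lower (131, 99.6 and 80.8 against 191, 252 and 208, -1.08 ± 0.35 (SE), adjusted p = 0.029, limma) and Ppargc1a was higher (1.02 ± 0.23 (SE), adjusted p = 0.0033, limma). Of the transporters 3 were higher at 6 h, 1 was higher and 1 lower at 24 h, 1 higher and 2 lower on day 3, 1 higher on day 7 and 1 lower on day 14. At 24 h Slc10a2, the apical bile salt uptake carrier, rose from 4.77, 9.14 and 6.63 to 17.2, 39.5 and 46.1 (2.10 ± 0.42 (SE), adjusted p = 0.0019, limma), and Abcg8 fell by 1.33 ± 0.25.

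Markers of other cell types moved with time after hepatectomy. Of the 6 Kupffer cell markers 6 were called lower at 6 h and 6 higher on day 7, and their sum was 116 to 199 FPKM in normal liver, 34.00 to 74.1 at 6 h, 89.3 to 93.9 at 24 h, 112 to 174 on day 3 and 588 to 871 on day 7. Of the 3 neutrophil markers tested 3 were higher at 6 h, 24 h and day 7. Red blood cell markers, 4 of 5 of them higher on day 7, summed to 87.4 to 150.3 in normal liver and 238 to 310.4 on day 7. The 5 hepatocyte markers summed to 52385 to 57384 in normal liver, 48242 to 55674 at 6 h, 35513 to 42390.1 at 24 h, 44988 to 68175 on day 3 and 38583 to 45157 on day 7. Endothelial markers summed to 126 to 130.4 in normal liver and 63.98 to 77.2 at 6 h, cholangiocyte markers to 26.97 to 33.1 and 37.9 to 197 at 24 h, and stellate cell markers to 59.9 to 77.1 and 62.4 to 196 on day 3. Their part in the results on the members was not tested.

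The genes whose pattern was most like each member were found by Pearson's r of log2 values over the 33 cell libraries and the 18 livers, given as a description without a test, since libraries of 1 group are not independent and the 3 hepatocyte libraries stand far from the rest. In the cell table Fam47e was the likest gene that is no member for Cyp7a1 (r = 0.99), Cyp8b1 (0.98) and Hsd3b7 (0.97). It was Sntg2 for Cyp7b1 (0.995), Ugt2b38 for Abcb11 (0.99), Sirt3 for Slc27a5 (0.98), Aspdh for Slc10a1 (0.98), F13b for Akr1d1 (0.97), Pex6 for Cyp27a1 (0.97) and Cyp4a32 for Baat (0.97). In liver it was Dhdh for Cyp7a1 (0.97), Cat for Cyp8b1 (0.96), Mup21 for Cyp7b1 (0.89), Gcat for Cyp27a1 (0.97), Ndufab1 for Baat (0.89), Afmid for Slc27a5 (0.97), Txndc16 for Akr1d1 (0.92), 2510002D24Rik for Hsd3b7 (0.97), Abcc6 for Abcb11 (0.90) and Nat8f1 for Slc10a1 (0.91). Thus Cyp7a1, Cyp8b1 and Hsd3b7 shared a likest gene in the cell table and no members did in liver. With members counted, Hsd3b7 was as like Cyp7a1 (0.973) as Fam47e (0.972) in the cell table.

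The 2 settings can be set side by side without a test, because the tables were made separately. Baat in passaged IL6-iHPCs stood at 63.6% and 43.3% of hepatocytes in the P10 lines, but at 1.21% at P20 and 0.199% at P35. In the first culture it was at 4.98% on D3 and 6.68% on D14. After hepatectomy the lowest group mean of Baat was 50.7% of normal liver. Abcb11, at 0.04397% to 0.321% of hepatocytes in passaged IL6-iHPCs, was at 44.4% of normal liver at its lowest, and Slc27a5, at 0.0103% to 1.75% in culture, was at 36.4%. Cyp7a1 was lowest in both, with 0 reads in passaged IL6-iHPCs and 1.59% of normal liver at 6 h.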

How the data were processed

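Gene expression was measured by RNA sequencing, and the deposited values were FPKM per gene and library, made by the authors before deposit. The submitters' processing notes name TopHat 1.4.1, Cufflinks 1.3.0 and the mm10 build. Of 60 samples, 51 in 17 groups of 3 were used, grouped by their labels, and 9 were not analysed here. FPKM values were whole multiples of 1 read per gene within 0.12 read, from which reads per library were recovered. Whether a read stands for a fragment or for a single read is not given in the sources used here.

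Values were analysed as log2(FPKM + 1), with genes kept at 1 FPKM or more in at least 3 libraries (12328 of the cell table, 11114 of the liver table). Each table was fitted once over all its groups with limma 3.58.1 (R 4.3.3), with an intensity trend and no replicate term, and p-values were adjusted by the Benjamini-Hochberg method over all genes tested. A call needed an adjusted p below 0.05 and a 2-fold difference. The fit was tested on simulated data. No test was run between the 2 tables. Figures and summaries used Python 3.11.15, numpy 2.4.6, pandas 2.3.3, numba 0.67.0 and matplotlib 3.10.9.

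The members and gene lists were chosen with earlier results of these data known. All 10 members were named. From each further list at most 2 higher and 2 lower called genes were named, in IL6-iMHs against hepatocytes and at 24 h, and for likeness the gene with the highest Pearson's r among genes that are no members. Each library was left out in turn, and the other alternatives were quantile normalization, median ratio scaling, a replicate block, no fold threshold, a pseudocount of 0.1, a 5 FPKM filter and dropping the filter. Voom on the recovered reads was chosen after seeing the data, as was the closer reading of the fits without replicate 1 of 24 h or replicate 2 of day 3. A further promoter sequence that was searched is not reported here.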

Additional observations from a re-analysis of the deposited data

Results flagged for a closer look

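The change of a member on maturation, taken within each line, differed between lines in 8 tests of the difference itself (limma, adjusted over all genes tested, on the log2(FPKM + 1) scale). In clone-1 less the mean of the 3 bulk lines the difference was -1.55 for Cyp8b1, -3.14 for Cyp27a1 and -1.55 for Slc10a1. In mouse-1 at P35 less mouse-1 at P10 it was -1.58 for Cyp8b1, 6.02 for Baat, 4.36 for Slc27a5, 2.35 for Akr1d1 and 1.71 for Slc10a1. For Baat and Slc27a5 the passages differed before maturation and far less after it. Every sample of a line was a technical repeat, so these tests compare cultures and not animals.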

How the results depend on the processing

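Of 268 results on single members, a filter at 5 FPKM changed none and no filter changed 1, a pseudocount of 0.1 gained 19 calls and lost 1, and voom gained 24 and lost 2. Median ratio scaling gained 7 and lost 2, and quantile normalization gained 2 and lost 8. The cause of each change was not tested. Under quantile normalization the sign turned for Baat in mouse-1 (P10) IL6-iHPCs against hepatocytes (0.021 from -0.66), for maturation of Akr1d1 in mouse-2 (0.57 from -0.07), for clone-1 less the bulk lines in Slc27a5 (0.19 from -0.11) and Akr1d1 (-0.14 from 0.05), and for Baat at 24 h (0.10 from -0.07) and day 7 (-0.052 from 0.03), and 3 rather than 5 members were called on day 3. Under median ratio scaling it turned for maturation of Baat in mouse-1 (P10) (0.035 from -0.26) and Akr1d1 in mouse-2 (0.45), for Akr1d1 in clone-1 less the bulk lines (-0.20) and for Baat on day 7 (-0.14). With voom it turned for Abcb11 in the P35 less P10 change on maturation (-0.11 from 0.21). Without the fold threshold 10 members rose on maturation in the mean of the 4 lines, in place of 6.

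Leaving out 1 library gave -0.01 to 0.062 for maturation of Hsd3b7 in clone-1, -0.055 to 0.11 for Akr1d1 in clone-1 less the bulk lines, -0.014 to 0.040 for maturation of Cyp7b1 at P35 and -0.049 to 0.0012 for Cyp7b1 in IL6-iHPCs at P35 against P10. In liver it gave 3 to 8 members at 24 h and -0.17 to 0.067 for Baat then, 2 to 7 members on day 3, -2.93 to 0.38 for Cyp7a1 and -0.35 to 1.04 for Akr1d1 on day 3, and -0.69 to 0.16 for Cyp7a1 on day 14. The 24 h count was lowest without PHX-24h replicate 3 and highest without replicate 1. The day 3 count was lowest without PHX-D3 replicate 2, highest without replicate 3, and 3 without normal liver replicate 1 or 2.

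Replicate numbers did not mark pairs. Deviations of same-numbered libraries correlated at a mean r of -0.015 in the cell table and -0.030 in liver, and 4 of 33 and 5 of 18 libraries correlated best with their own number. With the replicate block the members called at 24 h were 6 (Akr1d1 joined, adjusted p = 0.044, limma) and on day 3 were 4 (Cyp8b1 was lost, adjusted p = 0.051, limma), and no other call on a member changed. Depth limits Cyp7a1, which rests on 0 to 11 reads in D3, passaged IL6-iHPC and matured clone-1 and P35 libraries. It also limits Cyp8b1, with 3 to 10 reads per library at D3, 0 to 3 at D14 and at most 14 in passaged IL6-iHPCs. Cyp7b1 had at most 9 reads per library in the bulk passaged IL6-iHPCs, 4 to 12 in matured clone-1 and 0 to 10 in matured P35.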
